A study of Mus musculus with 9 samples.

Results

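The translation initiation factors of the mouse hippocampal neuronal line HT22 were described as the 53 entries, of 29756 in the table, whose symbol starts with Eif1 to Eif6; the kinases named Eif2ak and the pseudogenes were left out. RNA was sequenced from 9 libraries. The labels name an experimental group, an intervention group and a control group of 3 libraries each. All 9 come from the same unmodified line, an immortalised line used as a stand-in for hippocampal neurons, and the labels give no allele, dose or time. Hemin (oxidised heme) and PPP8, a bioactive micelle, appear in the title of the series; since no label ties either agent to a culture, groups are called by their label names. Nothing says that replicates came from separate cultures, so p-values measure the spread between these libraries, which may be technical.

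Initiation begins when eIF2, bound to GTP, brings the initiator tRNA to the small ribosomal subunit with eIF1, eIF1A, eIF3 and eIF5. The cap-binding eIF4E, the scaffold eIF4G and the helicase eIF4A load this complex onto the mRNA, where it scans to a start codon; eIF5 then triggers GTP hydrolysis on eIF2, eIF5B joins the large subunit, and eIF2B recharges eIF2 with GTP. Stress kinases phosphorylate the alpha subunit of eIF2 and so block eIF2B, and the 4E-binding proteins, controlled by the kinase mTOR, sequester eIF4E. One of the eIF2 kinases, the heme-regulated inhibitor encoded by Eif2ak1, is held inactive by heme.

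Values are FPKM, fragments scaled to gene length and to library size, so levels of different genes may be compared per length. The sequencing depth is unknown. FPKM summed to between 316912 and 339943 per library, lowest in the control libraries, and no pair of libraries held identical values. FPKM is a share of a library, so fewer cells of a type and less RNA per cell cannot be told apart. Of the 18 neuronal markers looked up, 12 stayed under 1 FPKM in every library, among them Rbfox3 and Map2, which were at 0.22 or less throughout, so defining markers of mature neurons were near 0 in cells labelled hippocampal neuronal. Summed FPKM of the astrocyte markers was 31.3 to 40.5 in control and 29.1 to 30.8 in experimental libraries, with 5 of 8 under 1 FPKM in all libraries. The microglia and blood sum was 3.03 to 4.64 against 12.4 to 13.5, with 6 of 9 under 1 FPKM in all libraries, and of the 2 tested members Tmem119 fell (0.93 against 10.3 in the means) and Cd68 rose (1.88 against 1.23). Of the 3 tested astrocyte markers, Slc1a3 and Sox9 fell and Gja1 rose (7.83 against 3.53). The oligodendrocyte and endothelium sum was 16.85 to 17.02 against 29.0 to 36.4, with 7 of 9 under 1 FPKM, and the neuronal sum 20.3 to 20.6 against 26.5 to 31.8. Of the 5 tested neuronal markers 0 were called higher and 3 lower in the experimental group, against 23.5% and 50.5% of all tested genes. The marker lists move with the groups, and their part in the results below was not tested.

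Of the 53 entries, 46 reached 1 FPKM in at least 3 libraries and were tested. The 7 others were at 0.64 FPKM or less in every library: Eif2s3y, the Y-linked copy of the eIF2 gamma subunit gene; Eif4a3l1 and Eif4a3l2, copies of Eif4a3; Eif4e3, Eif4ebp3 and Eif4g3; and Eif2c5, an old Argonaute name that the rule also matches and that GENCODE lists as a long non-coding RNA. Mean FPKM of the tested genes ran from 3.26 (Eif2b3) to 306.7 (Eif4b) in the control libraries. Summed over all 53 entries, it was 2641 ± 61 (SD, n = 3) in control, 3291 ± 0.83 in experimental and 3240 ± 31 in intervention libraries.

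In the experimental group 33 of the 46 tested genes were higher than in the control group and 7 were lower, and 6 did not pass (limma on log2(FPKM + 1), Benjamini-Hochberg adjusted p under 0.05 over 11974 genes). Among all tested genes 23.5% were higher and 50.5% lower. The median log2 difference was 0.26 for the initiation factors and -0.21 for all tested genes. FPKM ranges of the groups did not overlap for 34 genes on the higher side (24.7% of all tested genes) and 7 on the lower side (51.5%). Most tested genes fell on the deposited scale, so the comparison depends on how libraries are scaled. After median-ratio scaling, which moves the median of all genes to about 0 (-0.0043), 39 factors were higher and 5 lower, against 36.1% and 36.7% of all tested genes, and their median was 0.50. Quantile normalization gave 35 higher and 6 lower, against 34.8% and 37% of all tested genes, with a median of 0.31. Scaling to TPM went the other way: 35 of the 40 deposited-scale calls were kept and none was gained. In either direction 35 of the 46 factors and 8939 of 11974 tested genes were called. These are similar shares, so this count is not read as a result about the factors. The calls lost were the rises of Eif1ax, Eif2b4, Eif3i, Eif4a2 and Eif4enif1, and the median of all tested genes was -0.30. Of the 40 genes called on the deposited scale, 33 kept their call with each of the 9 libraries left out in turn; the others were Eif1ax, Eif2b4, Eif3i, Eif4a2, Eif4b, Eif4enif1 and Eif4g1, and all 7 lost it without control replicate 1.

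**Figure D1:**
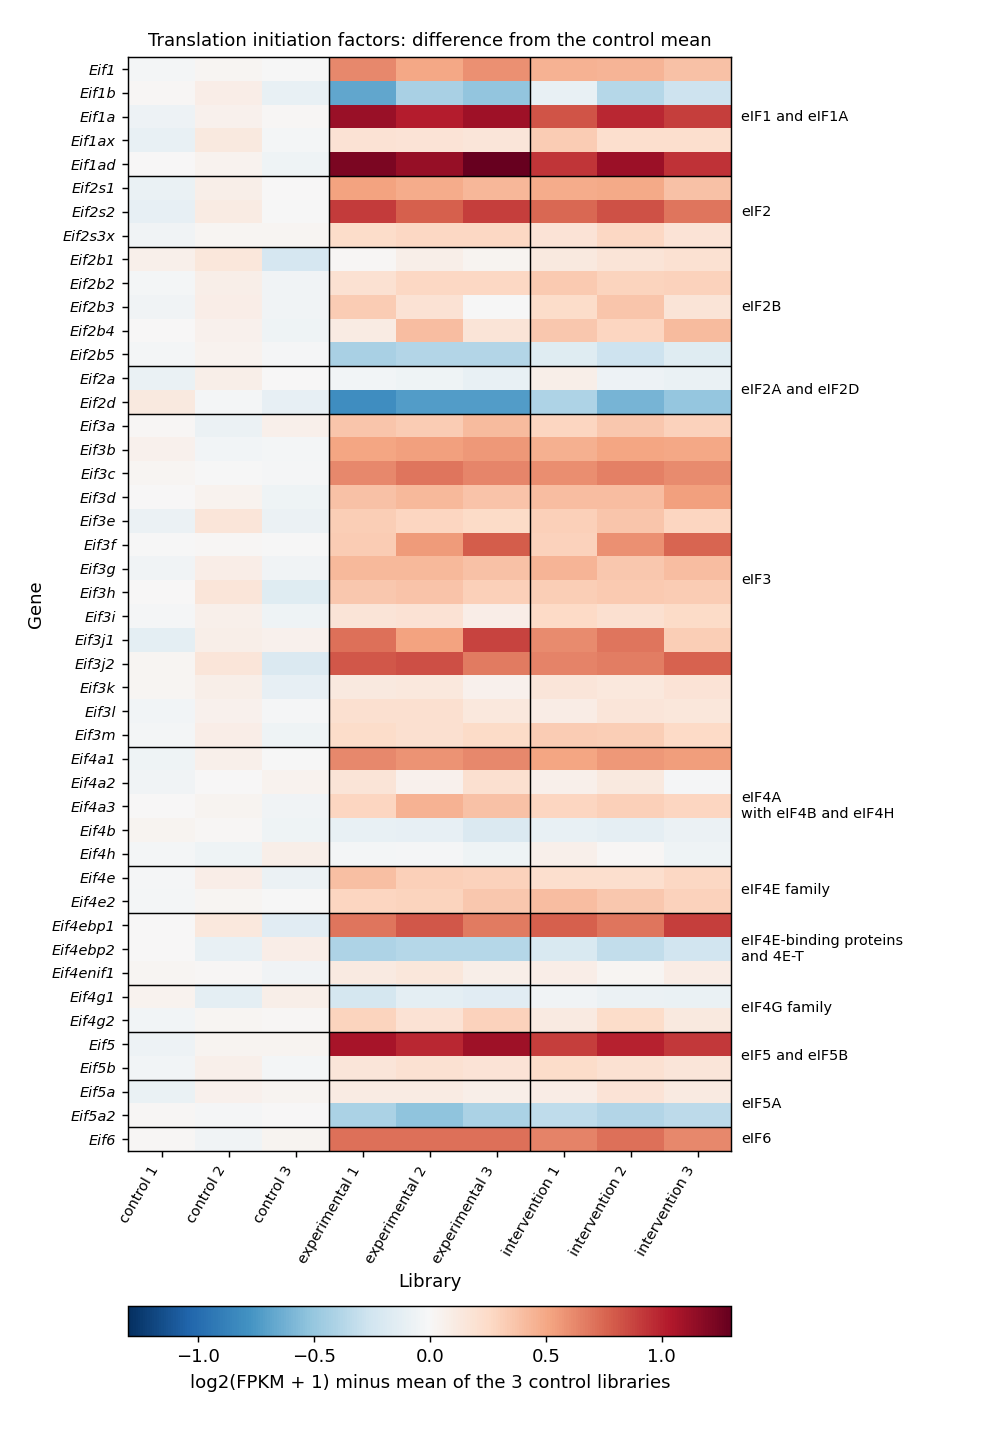
Each row is 1 of the 46 tested genes and each column 1 library; colour gives log2(FPKM + 1) minus the mean of the 3 control libraries, red for higher and blue for lower. The experimental and intervention columns are red for most rows, with the strongest red for Eif1ad, Eif1a and Eif5, and blue for Eif2d, Eif1b, Eif2b5, Eif4ebp2 and Eif5a2.

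The eIF1 and eIF1A genes held the largest rise and, in 1 paralog pair, opposite directions: 4 of 5 rose and Eif1b fell. Eif1ad encodes a protein with an eIF1A-like domain that is linked to maturation of the small ribosomal subunit. It lies at chr19:5366741-5371526 on the plus strand (mm10). Its FPKM was 15.37, 15.80 and 14.71 in the control libraries, 37.08, 34.76 and 39.39 in the experimental and 29.95, 34.29 and 30.25 in the intervention libraries. Every experimental library lay above every control library, 2.42-fold in the means (log2 difference 1.22 ± 0.066, SE; limma adjusted p = 1.82e-07).
Eif1a, for an eIF1A that helps the initiator tRNA bind and the ribosome scan, was at 14.38, 15.67 and 15.23 in control, 34.12, 31.67 and 33.58 in experimental and 27.31, 30.63 and 29.02 in intervention libraries. It was 2.19-fold higher in the experimental group (log2 1.08 ± 0.057; limma adjusted p = 1.58e-07), whereas Eif1ax, the X-linked eIF1A gene, went only from 26.2 ± 2.18 to 29.6 ± 0.271 (log2 0.17; limma adjusted p = 0.0252), a call lost without any 1 experimental library or without control replicate 1 or 3. Control and experimental libraries of Eif1a and Eif1ax thus came in different orders: Eif1ax was the higher of the 2 in control, Eif1a in the experimental group.
Eif1, which guards start codon choice on the scanning ribosome, was among the most abundant factors, at 201.81, 208.96 and 204.92 FPKM in control, 316.72, 291.40 and 311.01 in experimental and 281.45, 278.97 and 267.76 in intervention libraries. It rose 1.49-fold (log2 0.57 ± 0.047; limma adjusted p = 2.18e-06). Its paralog Eif1b was at 19.35, 20.27 and 17.74 in control, 11.55, 14.05 and 13.12 in experimental and 17.83, 14.52 and 15.66 in intervention libraries, and fell (log2 -0.53 ± 0.088; limma adjusted p = 0.000303). The experimental libraries were below all control libraries for Eif1b and above them for Eif1.

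Promoter sequence is shown for Eif1ad, which had the largest rise, for Eif5, which rose nearly as much, and for the pair Eif1 and Eif1b, which went opposite ways. Each is the 300 bases from 250 before to 50 after the RefSeq start site (GRCm38.p6), on the gene's strand, in lower case with a matched motif in capitals: Eif1ad chr19:5366563-5366862, Eif5 chr12:111537851-111538150, Eif1 chr11:100319699-100319998 and Eif1b chr9:120492356-120492655, all on the plus strand.
Eif1ad: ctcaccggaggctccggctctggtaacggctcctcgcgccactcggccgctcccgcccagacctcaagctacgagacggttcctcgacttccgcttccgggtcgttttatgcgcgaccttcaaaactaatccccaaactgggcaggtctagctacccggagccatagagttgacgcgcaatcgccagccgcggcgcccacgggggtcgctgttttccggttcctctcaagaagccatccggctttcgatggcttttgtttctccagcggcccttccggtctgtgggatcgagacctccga
Eif5: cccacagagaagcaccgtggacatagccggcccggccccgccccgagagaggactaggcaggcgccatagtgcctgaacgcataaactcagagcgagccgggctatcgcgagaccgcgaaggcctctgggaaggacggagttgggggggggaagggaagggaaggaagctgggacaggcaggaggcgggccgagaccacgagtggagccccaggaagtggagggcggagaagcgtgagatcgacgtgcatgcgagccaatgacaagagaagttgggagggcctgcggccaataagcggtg
Eif1: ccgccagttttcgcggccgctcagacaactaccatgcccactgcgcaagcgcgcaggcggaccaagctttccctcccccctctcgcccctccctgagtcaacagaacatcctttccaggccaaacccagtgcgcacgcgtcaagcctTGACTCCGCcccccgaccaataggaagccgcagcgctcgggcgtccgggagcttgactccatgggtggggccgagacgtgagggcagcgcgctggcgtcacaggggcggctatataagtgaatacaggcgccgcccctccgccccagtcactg
Eif1b: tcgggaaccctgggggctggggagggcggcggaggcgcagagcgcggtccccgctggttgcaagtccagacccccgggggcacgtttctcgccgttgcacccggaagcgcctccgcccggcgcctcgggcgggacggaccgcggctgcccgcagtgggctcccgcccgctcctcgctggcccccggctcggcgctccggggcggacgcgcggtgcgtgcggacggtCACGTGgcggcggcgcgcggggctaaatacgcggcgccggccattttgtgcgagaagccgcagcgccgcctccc
Of the 53 entries 41 had a promoter in the RefSeq table, and a gene with several starts was counted as holding a motif if any of its windows did. The 3 motifs searched, on both strands, were TGATGNAA (the composite element bound by C/EBP and ATF factors), TGACNNNGC (the core of the antioxidant response element, which some AP-1 sites also fit) and CACGTG (an E-box). Eif1 holds TGACTCCGC starting 103 bases upstream of the start site, Eif1b holds CACGTG 24 bases upstream, and neither Eif1ad nor Eif5 holds any of the 3 in this window. TGATGNAA was found in 1 of the 41 promoters, that of Eif2s3x (2.4%, against 4.5% of 27025 promoters in the table and 2.4% of those of tested genes). TGACNNNGC was in 8 (19.5%, against 14.0% and 16.9%), of which Eif1, Eif2b4, Eif3a and Eif3j1 rose, Eif2d and Eif5a2 fell, Eif5a was not called and Eif2s3y was not tested. CACGTG was in 10 (24.4%, against 8.1% and 12.3%): Eif3a, Eif3f, Eif4a1 and Eif4e, which rose, Eif1b, Eif4g1 and Eif5a2, which fell, and Eif3k, Eif4h and Eif5a, which were not called. In Eif5a and Eif5a2 a TGACNNNGC match and a CACGTG match overlap. A match says only that these letters occur.

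All 3 tested subunits of eIF2 rose, with a median log2 difference of 0.48. Eif2s1, for the alpha subunit that the stress kinases phosphorylate, was at 14.63, 16.48 and 15.66 FPKM in control, 22.78, 22.14 and 21.32 in experimental and 22.09, 22.35 and 20.51 in intervention libraries. Its experimental mean was 1.42-fold higher (log2 0.48 ± 0.057; limma adjusted p = 3.06e-05). Eif2s2, for the beta subunit, had the larger change: 18.19, 21.29 and 19.66 in control, 37.80, 34.31 and 37.58 in experimental and 33.61, 35.61 and 32.51 in intervention libraries, 1.85-fold (log2 0.86 ± 0.066; limma adjusted p = 1.46e-06). For both genes all experimental and intervention libraries lay above all control libraries. Eif2s3x, for the gamma subunit that holds GTP and the initiator tRNA, was the most abundant of the 3 per length and moved least, from 74.7 ± 1.96 to 89.6 ± 0.911 (log2 0.26; limma adjusted p = 0.000395).

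Among the 5 subunits of the exchange factor eIF2B, Eif2b2 and Eif2b4 rose, Eif2b5 fell, and Eif2b1 (log2 0.04, 95% interval -0.14 to 0.23) and Eif2b3 (0.17, -0.04 to 0.38) did not pass. Eif2b5, for the epsilon subunit that carries out the exchange, lies at chr16:20498817-20509323 on the plus strand. Its FPKM was 30.46, 32.12 and 30.77 in control, 22.94, 23.62 and 23.65 in experimental and 27.81, 25.66 and 27.72 in intervention libraries. The 3 groups did not overlap, and the experimental group was lowest (log2 -0.40 ± 0.048 against control; limma adjusted p = 3.28e-05). Eif2b2, a regulatory subunit, was at 20.51, 21.99 and 20.13 in control and 24.08, 25.43 and 25.31 in experimental libraries (log2 0.25 ± 0.049; limma adjusted p = 0.00100). Eif2b4 rose by a log2 of 0.23, but not without experimental replicate 2 or control replicate 1 or 3. Summed FPKM of the 5 subunits was 80.3 ± 4.26 in control and 79.5 ± 2.49 in experimental libraries. After median-ratio scaling 4 subunits were higher, with a median log2 difference over the 5 of 0.36, and Eif2b5 stayed lower (-0.16).

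Of the 2 factors that can handle initiator tRNA without eIF2, Eif2d fell and Eif2a, which despite its name encodes eIF2A and no subunit of eIF2, did not pass (log2 -0.06, 95% interval -0.19 to 0.07). Eif2d, at chr1:131153181-131187658 on the plus strand, had the largest fall among the factors: 8.70, 7.74 and 7.23 FPKM in control, 4.07, 4.38 and 4.36 in experimental and 5.73, 4.83 and 5.26 in intervention libraries (log2 -0.75 ± 0.076; limma adjusted p = 9.39e-06). The ranges of all 3 groups were separate. After median-ratio scaling Eif2a counted as higher (log2 0.17), while Eif2d remained lower (-0.54).

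RNA levels for the eIF3 complex, the scaffold that recruits the small subunit to mRNA, rose nearly throughout. Of 14 subunit genes 13 were higher and 0 lower, against 23.5% and 50.5% of all tested genes. None was lower at an unadjusted p under 0.05 either, and the median log2 difference was 0.38. Eif3j1 and Eif3j2 count separately here, although they encode the same subunit and share much sequence, as given below. Summed FPKM was 967 ± 39.7 in control, 1285 ± 14.3 in experimental and 1272 ± 23.1 in intervention libraries. Eif3k, a peripheral subunit, was the one that did not pass (39.82, 41.17 and 36.25 in control; 42.77, 43.17 and 40.67 in experimental libraries; log2 0.11, 95% interval -0.01 to 0.23), although it passed after median-ratio scaling, quantile normalization or without control replicate 2. Differences ran from 0.15 for Eif3i, called only while experimental replicates 1 and 2 and control replicates 1 and 3 were all kept, to 0.77 for Eif3j2. Among the core subunits, Eif3c rose most: 150.71, 147.49 and 147.41 in control, 229.33, 240.50 and 230.81 in experimental and 226.16, 233.84 and 227.45 in intervention libraries, 1.57-fold (log2 0.65 ± 0.041; limma adjusted p = 4.58e-07). Eif3a, the largest subunit, was at 86.38, 81.49 and 89.50 in control, 110.62, 107.94 and 114.24 in experimental and 104.05, 109.43 and 106.04 in intervention libraries (log2 0.37 ± 0.049; limma adjusted p = 6.17e-05). Eif3b, the core subunit that Eif3g and Eif3i bind, rose by a log2 of 0.54, and Eif3d, which can bind the mRNA cap, by 0.39.
Levels differed widely within the complex. Per length, Eif3h (248 ± 27.7 FPKM in control), Eif3c and Eif3b were the 3 most abundant in every group, and Eif3j2 and Eif3j1 the 2 lowest. Eif3l lay above Eif3a in control, with no overlap, and below it in the experimental and intervention groups. Eif3k and Eif3e overlapped in the control and experimental groups, as did Eif3e and Eif3g in all 3. Eif3f had the largest coefficient of variation within a group of any tested factor (16%), at 67.24, 79.07 and 92.78 in the experimental and 65.86, 81.35 and 90.81 in the intervention libraries against 53.32, 53.96 and 53.10 in control. Eif3j1 and Eif3j2 encode the loosely bound subunit that sits near the decoding centre. Eif3j1 was at 5.31, 6.24 and 6.13 in control, 10.28, 8.90 and 11.64 in experimental and 9.50, 10.18 and 7.61 in intervention libraries (log2 0.71 ± 0.11; limma adjusted p = 0.000250). Eif3j2 was at 11.72, 12.90 and 9.97 in control, 20.86, 21.24 and 18.96 in experimental and 18.48, 18.81 and 20.15 in intervention libraries (log2 0.77 ± 0.084; limma adjusted p = 1.55e-05). Of the 50-base windows of the Eif3j2 transcript 90.8% also occur in Eif3j1, so its value is largely inseparable from that of Eif3j1, while 39.4% of the Eif3j1 windows occur in Eif3j2.

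**Figure D2:**
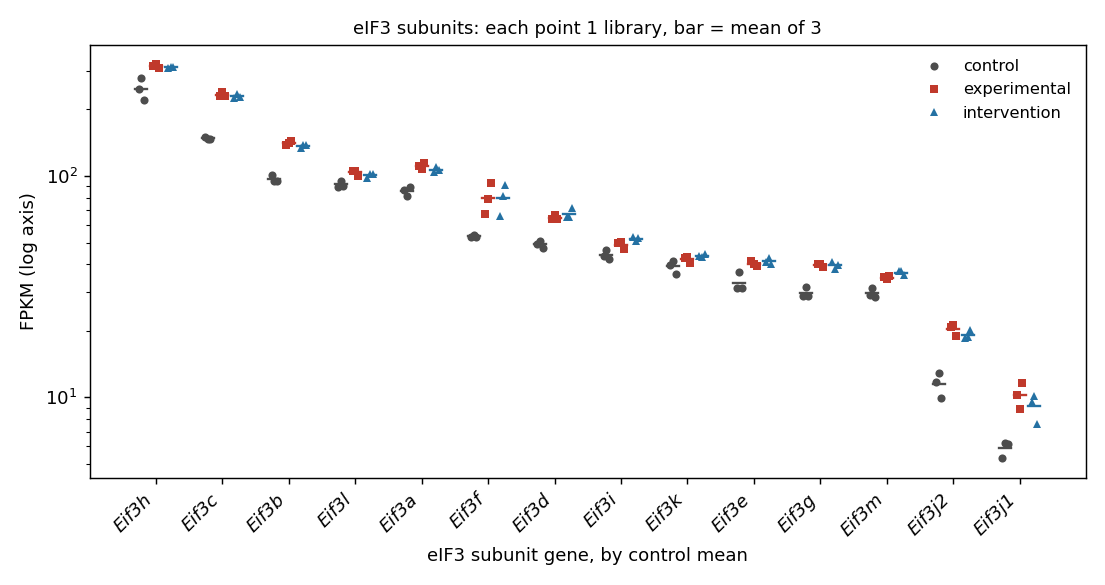
FPKM of the 14 eIF3 subunit genes on a log axis, ordered by control mean; each point is 1 library and each bar the mean of 3. The experimental and intervention points lie above the control points for every subunit except Eif3k, whose control and experimental values overlap, and Eif3f shows the widest spread on this log axis within the experimental and intervention groups.

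In the cap-binding machinery the helicase genes rose while their cofactors did not, although the cofactor gene Eif4h was called higher after median-ratio scaling. Eif4a1, for the main cap-proximal helicase, was at 119.24, 129.31 and 123.05 FPKM in control, 191.44, 186.17 and 191.28 in experimental and 177.40, 183.49 and 180.75 in intervention libraries, 1.53-fold (log2 0.61 ± 0.044; limma adjusted p = 1.02e-06). Its value shares reads with copies: 65.3% of its 50-base windows occur elsewhere, nearly all in the pseudogene Eif4a-ps4, itself listed at 98.8 to 105 FPKM in control and 155 to 170 in experimental libraries. Eif4a3, the helicase of the exon junction complex, rose by a log2 of 0.37. Eif4a2, a helicase paralog, rose by 0.15 (35.6 ± 1.20 to 39.6 ± 2.21), a call lost without experimental replicate 1 or 3 or control replicate 1 or 2.
Eif4b, a helicase cofactor and the most abundant factor in control, was at 313.94, 310.77 and 295.41 FPKM in control, 285.77, 285.56 and 268.15 in experimental and 287.50, 283.49 and 290.54 in intervention libraries. Its fall of 0.13 on the log2 scale (limma adjusted p = 0.0242) was lost without experimental replicate 3 or control replicate 1 or 2 and turned to 0.11 after median-ratio scaling. Eif4h, the other cofactor, did not pass (log2 -0.03, 95% interval -0.14 to 0.08).

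Both tested cap-binding genes rose. Eif4e, for the cap-binding protein itself, was at 21.31, 22.90 and 20.43 FPKM in control, 28.62, 26.90 and 26.71 in experimental and 25.29, 25.16 and 26.19 in intervention libraries (log2 0.33 ± 0.053; limma adjusted p = 0.000233). Eif4e2, for the paralog 4EHP that represses selected mRNAs, rose from 9.02 ± 0.18 to 11.4 ± 0.333 (log2 0.30).
The inhibitors of eIF4E went in opposite directions. Eif4ebp1 was at 36.10, 39.60 and 32.29 in control, 58.58, 63.31 and 57.78 in experimental and 62.00, 58.71 and 67.65 in intervention libraries, 1.66-fold higher (log2 0.72 ± 0.079; limma adjusted p = 1.58e-05). Eif4ebp2 was at 34.50, 32.19 and 36.67 in control, 25.72, 26.43 and 26.33 in experimental and 29.79, 27.44 and 28.76 in intervention libraries (log2 -0.38 ± 0.055; limma adjusted p = 0.000120). That fall ranked at percentile 37.9 among all tested genes, whose median was -0.21. After median-ratio scaling it shrank to -0.15 and kept its call. At near-equal levels in control, the 2 inhibitors stood more than 30 FPKM apart in every experimental library. Eif4enif1, for the eIF4E transporter 4E-T, passed narrowly (log2 0.11; limma adjusted p = 0.0492), a call lost without any 1 of the 9 libraries.
Within the scaffold family the full-length eIF4G gene fell on the deposited scale only narrowly, and its short relative rose. Eif4g1 was at 101.91, 90.15 and 103.88 in control, 84.02, 89.96 and 89.09 in experimental and 95.26, 93.07 and 92.51 in intervention libraries. Its fall of 0.17 on the log2 scale (limma adjusted p = 0.0252) was lost without experimental replicate 1 or control replicate 1 or 3 and turned to 0.08 after median-ratio scaling. Eif4g2, for DAP5, which lacks the eIF4E-binding region, was at 100.73, 104.98 and 103.99 in control, 126.72, 118.06 and 127.04 in experimental and 111.79, 122.15 and 113.15 in intervention libraries (log2 0.26 ± 0.051; limma adjusted p = 0.000921).

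Among the late-acting factors, Eif5, for the activator of GTP hydrolysis on eIF2, had the third largest rise. It lies at chr12:111538016-111546752 on the plus strand and was at 30.74, 32.88 and 32.88 FPKM in control, 68.54, 64.29 and 70.33 in experimental and 60.62, 65.29 and 61.52 in intervention libraries, 2.11-fold (log2 1.05 ± 0.053; limma adjusted p = 1.27e-07). All experimental libraries lay above 60 FPKM and all control libraries below 33. Eif5b, for the GTPase that joins the large subunit, rose by a log2 of 0.18. Eif6, for the factor that keeps the large subunit from joining early, was at 29.30, 28.21 and 29.77 in control, 48.57, 48.49 and 48.35 in experimental and 45.93, 48.37 and 45.26 in intervention libraries, 1.67-fold (log2 0.72 ± 0.044; limma adjusted p = 3.83e-07).
The eIF5A genes encode the hypusine-carrying factor that also helps elongation and termination. Eif5a was at 180.07, 198.99 and 195.44 in control, 206.20, 206.11 and 202.04 in experimental and 205.31, 216.07 and 208.16 in intervention libraries and did not pass (log2 0.10 ± 0.049; limma adjusted p = 0.0951), though the control and experimental ranges were separate; it passed after median-ratio scaling (0.34) or without control replicate 2 and was at -0.03 after quantile normalization. Its low paralog Eif5a2 was at 3.67, 3.58 and 3.66 in control, 2.49, 2.23 and 2.48 in experimental and 2.69, 2.55 and 2.65 in intervention libraries and fell (log2 -0.45 ± 0.060; limma adjusted p = 6.74e-05), a call that quantile normalization ended (-0.13).

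**Figure D3:**
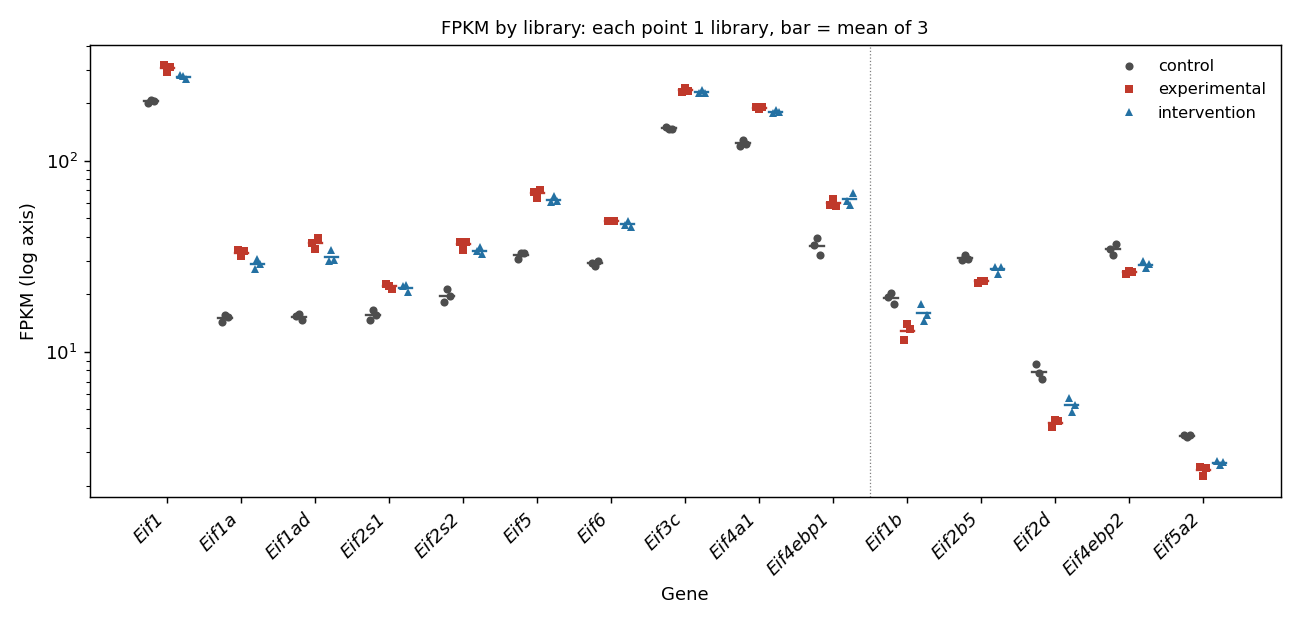
FPKM on a log axis for 15 factors in each library, each bar the mean of 3; genes left of the dotted line rose and genes right of it fell in the experimental group. The intervention points lie close to the experimental points for most genes, and the intervention mean lies between the other 2 means for every gene shown except Eif4ebp1.

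Summarised by complex, the count of genes higher, lower and not called in the experimental group was 4, 1 and 0 for eIF1 and eIF1A, 3, 0 and 0 for eIF2, 2, 1 and 2 for eIF2B, 0, 1 and 1 for eIF2A and eIF2D, and 13, 0 and 1 for eIF3. It was 3, 1 and 1 for eIF4A with eIF4B and eIF4H, 2, 0 and 0 for the eIF4E family, 2, 1 and 0 for the 4E-binding proteins and 4E-T, 1, 1 and 0 for eIF4G, 2, 0 and 0 for eIF5 and eIF5B, 0, 1 and 1 for eIF5A and 1, 0 and 0 for eIF6. The 7 falls came from 7 different groups, 1 gene in each, while 23.5% of all tested genes were higher and 50.5% lower. Most groups hold few genes, and counts shift with scaling. After median-ratio scaling they were 4, 1 and 0 for eIF2B and 1, 1 and 0 for eIF2A and eIF2D. For eIF3 they were 14, 0 and 0, for eIF4G 1, 0 and 1, and for eIF5A 1, 1 and 0. The eIF4A group stood at 4, 0 and 1. That left 5 falls, against 36.7% of all tested genes lower and 36.1% higher.

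**Figure D4:**
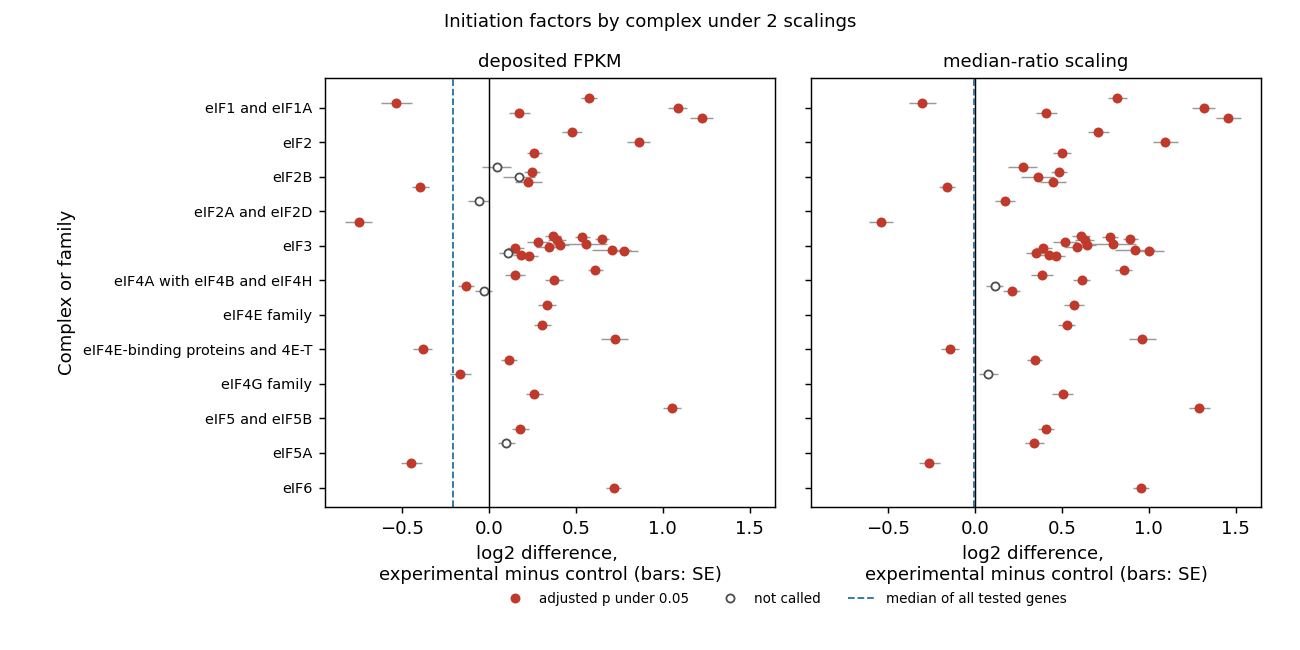
Log2 difference of experimental minus control with its SE for each tested factor, by complex, on the deposited FPKM (left) and after median-ratio scaling (right); filled points passed an adjusted p of 0.05 and the dashed line is the median of all tested genes. The eIF3 points lie right of 0 in both panels, and the median of all genes moves from -0.21 to about 0.

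The intervention group was compared with the experimental group to ask what differed between these 2 labelled conditions. In this comparison 3 of 46 factors were higher (15.9% of all tested genes) and 2 were lower (3.6%). FPKM ranges did not overlap for 11 factors on the higher side (33.7% of all tested genes) and 5 on the lower side (8.79%). The median log2 difference was 0.0061 for the factors and 0.10 for all tested genes. Higher were Eif2b5 (log2 0.20 ± 0.048; limma adjusted p = 0.0234), Eif2d (0.25 ± 0.076; 0.0465) and Eif1b (0.29 ± 0.088; 0.0466), each with no overlap between the groups. Lower were Eif1ad (-0.23 ± 0.066; 0.0392) and Eif1a (-0.19 ± 0.057; 0.0456). Eif1 missed the threshold (-0.15 ± 0.047; limma adjusted p = 0.0509). None of the 14 eIF3 genes, of the 3 eIF2 genes or of the cap-binding group passed. Where a factor did not pass, the intervals still allow small differences: for Eif5 the 95% interval of the log2 difference ran from -0.23 to 0.0032, for Eif4ebp2 from 0.0028 to 0.25 and for Eif3c from -0.12 to 0.06.
These calls depended on single libraries. All 5 were kept without intervention replicate 2, 4 without experimental replicate 2, control replicate 2 or control replicate 3, and 2 without control replicate 1. With experimental replicate 1 or 3, or intervention replicate 1 or 3, left out, no factor was called, and the number of calls over all genes fell from 2337 to 1, 4, 6 and 950. At an unadjusted p under 0.05, 6 or 7 factors were counted in each of these 4 fits, and 7 with all libraries. Under median-ratio scaling and quantile normalization the 3 higher calls were lost, while Eif1ad and Eif1a kept theirs and Eif1 joined them; under median-ratio scaling Eif5 and Eif4a3 were lower as well. That made 0 higher and 5 lower under median-ratio scaling, against 5.39% and 6.61% of all tested genes, and 0 higher and 3 lower after quantile normalization, against 3.77% and 4.9%; 20 and 9 factors had an unadjusted p under 0.05. The experimental libraries enter both this comparison and the one with control, so the differences are not independent.

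Against the control group, 34 factors were higher in the intervention group (24.1% of all tested genes) and 5 were lower (41.1%), with a median log2 difference of 0.30 against -0.10 for all tested genes. Ranges did not overlap for 34 factors on the higher side (25.8%) and 5 on the lower side (42.9%). All 14 eIF3 genes were higher on the deposited scale, with a median of 0.36, down to 0.13 for Eif3l. Leaving out intervention replicate 1, 2 or 3 or control replicate 1 or 3 ended the call of Eif3k, Eif3l or both. Scaling to TPM ended both calls. After quantile normalization 12 of the 14 were higher, and the calls of Eif3h and Eif3l were lost. The largest differences were those of Eif1ad (log2 0.99), Eif5 (0.94), Eif1a (0.90), Eif4ebp1 (0.79) and Eif2s2 (0.75). Lower were Eif2d (-0.50), Eif5a2 (-0.35), Eif4ebp2 (-0.26), Eif1b (-0.25) and Eif2b5 (-0.20). Median-ratio scaling ended the calls of Eif4ebp2, Eif1b and Eif2b5. Eif1b overlapped its control range and lost its call without intervention replicate 2 or 3 or control replicate 1 or 2. Eif5a, at a log2 of 0.13, passed here (limma adjusted p = 0.0355) but not in most leave-out fits. After median-ratio scaling 38 factors were higher and 2 lower, against 33.4% and 31.6% of all tested genes. Quantile normalization gave 32 higher and 5 lower, against 31.7% and 32.7%.

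Ratios of 2 factors within a library do not depend on scaling between libraries, and 8 were computed in each of the 3 comparisons. With 3 libraries a group the exact permutation test, 2-sided, cannot give a p below 0.1, and after adjustment over the 24 tests the smallest is 0.141, so none can pass 0.05. Experimental and control ranges were separate for 7 of the 8 ratios, each at that smallest p. The same count over other gene pairs was not made. As single genes, 24.7% of all tested genes were separate on the higher side and 51.5% on the lower side. The 7 are therefore not read as a result about the factors.
Eif1b to Eif1 was 0.0932 ± 0.00573 (SD, n = 3) in control, 0.0423 ± 0.00587 in experimental and 0.0580 ± 0.00567 in intervention libraries, with 3 separate ranges. The ratio of the catalytic eIF2B subunit gene to its substrate's alpha subunit gene, Eif2b5 to Eif2s1, was 2.0 ± 0.0726 in control, 1.06 ± 0.0514 in experimental and 1.25 ± 0.102 in intervention libraries, also separate. Inhibitor to target, Eif4ebp1 to Eif4e rose from 1.67 ± 0.0777 to 2.19 ± 0.155 and stood at 2.46 ± 0.125 in the intervention group, while Eif4ebp2 to Eif4e went from 1.61 ± 0.195 to 0.956 ± 0.0494 and 1.12 ± 0.0484. These 2 ratios share the denominator Eif4e, which itself rose in the experimental group. Both are among the 7 that are not read as a result.
Among the other pairs, Eif4a2 to Eif4a1 was 0.288 ± 0.0116, 0.209 ± 0.00864 and 0.206 ± 0.00961 in control, experimental and intervention libraries, and Eif5a2 to Eif5a was 0.0190 ± 0.00122, 0.0117 ± 0.000789 and 0.0125 ± 0.00067. The denominators Eif4a1 and Eif1 share 65.3% and 31.6% of their 50-base windows with other transcripts. The ratios Eif4a2 to Eif4a1 and Eif1b to Eif1 are therefore uncertain as ratios of single genes. Eif4g2 to Eif4g1 was 1.05 ± 0.0982, 1.42 ± 0.0983 and 1.24 ± 0.0704. Eif4e2 to Eif4e overlapped between all groups (0.419 ± 0.02, 0.416 ± 0.0258 and 0.462 ± 0.0263).

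**Figure D5:**
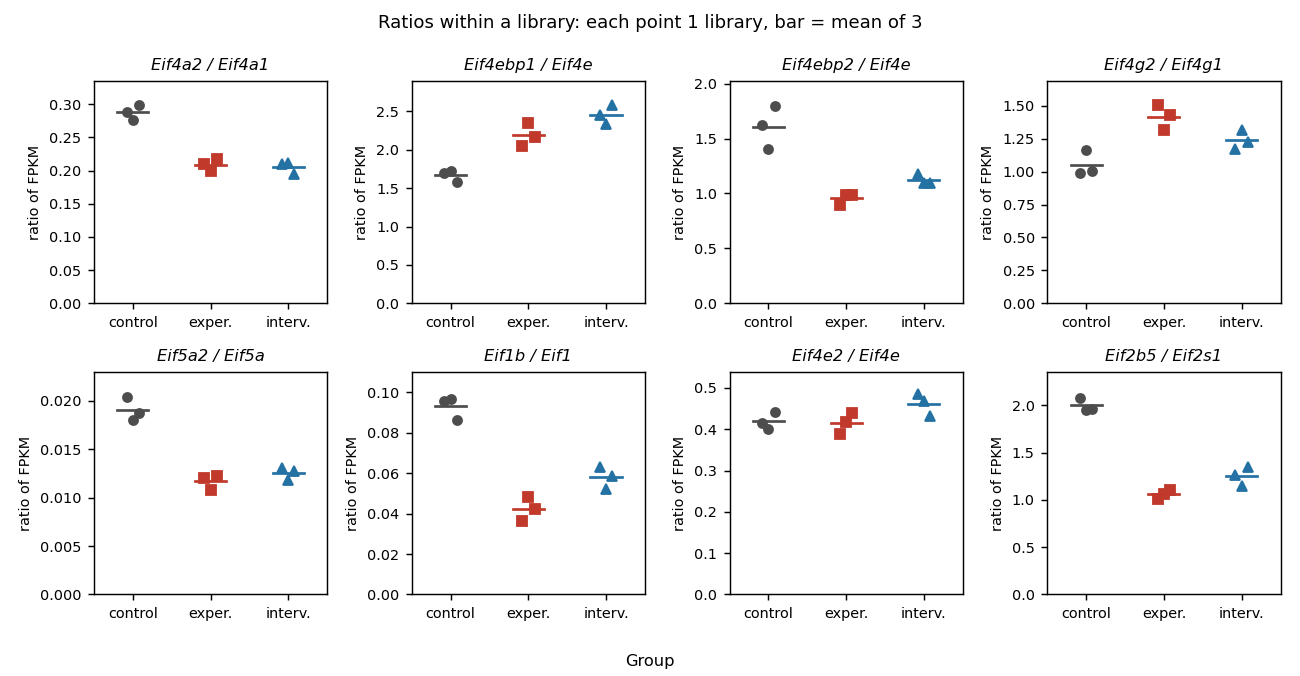
FPKM ratio of 2 factors within a library, on axes that start at 0, for each of the 9 libraries with the group mean as a bar. Eif1b to Eif1, Eif4ebp2 to Eif4e and Eif2b5 to Eif2s1 form 3 separate groups, highest in control, while Eif4e2 to Eif4e overlaps throughout.

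Other genes of the pathway were taken from 5 lists. Their counts stand beside 23.5% higher and 50.5% lower over all tested genes on the deposited scale. The matching shares are 36.1% and 36.7% after median-ratio scaling, and 34.8% and 37% after quantile normalization. Of 10 genes for eIF2 alpha kinases and phosphatase subunits, 4 were higher and 5 lower in the experimental group (5 and 4 after median-ratio scaling). Ppp1r15a, the stress-induced subunit that directs phosphatase to eIF2 alpha, was at 10.05, 9.13 and 8.87 FPKM in control, 83.79, 60.42 and 80.33 in experimental and 30.72, 48.75 and 41.89 in intervention libraries (log2 2.86 against control; limma adjusted p = 2.37e-07). The constitutive Ppp1r15b went from 30.4 ± 2.15 to 48.5 ± 2.09, and Eif2ak2, for the double-stranded-RNA-activated kinase PKR, from 13.5 ± 0.626 to 6.46 ± 0.681. Eif2ak1, named here after its values were seen because its product is held inactive by heme, was at 12.04 ± 0.461 in control and 11.6 ± 0.237 in experimental libraries and was not called (95% interval of the log2 difference -0.16 to 0.05).
Of 22 cap, poly(A) and scanning partners 10 were higher and 5 lower (14 and 1 after median-ratio scaling, 11 and 2 after quantile normalization), led by Larp4, a poly(A)-binding protein gene (13.9 ± 0.861 to 29.1 ± 2.43), Bzw2, for an eIF5 mimic (9.38 ± 0.646 to 14.9 ± 0.643), and the helicase gene Ddx3x (99.8 ± 4.67 to 152 ± 10.9). Of 16 genes of the signalling to eIF4, 6 were higher and 7 lower (9 and 6 after median-ratio scaling): Rheb, the activator of mTOR complex 1, went from 7.22 ± 0.528 to 13.9 ± 0.344, Akt1s1, a brake on that complex, from 16.96 ± 1.49 to 35.5 ± 1.12, and the kinase gene Rps6kb2 from 4.95 ± 0.333 to 2.31 ± 0.0902.
Of 11 tested elongation genes 9 were higher and 2 lower (also 9 and 2 after median-ratio scaling, 7 and 2 after quantile normalization): Eef1d, an exchange factor subunit, rose from 30.3 ± 1.33 to 42.7 ± 0.963, and Eefsec, for the selenocysteine elongation factor (11.7 ± 0.45 to 5.40 ± 0.335), and Eef2k, for the kinase that inhibits eEF2 (5.76 ± 0.14 to 3.62 ± 0.108), fell. Of 6 termination and recycling genes 3 were higher and 3 lower (3 and 1 after median-ratio scaling, 3 and 2 after quantile normalization), with Etf1, for the release factor eRF1, going from 46.9 ± 1.11 to 98.7 ± 7.18, Pelo, a ribosome rescue gene, from 9.77 ± 1.07 to 16.8 ± 0.623 and N6amt1, for the methyltransferase of eRF1, from 1.46 ± 0.112 to 0.743 ± 0.0874.

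The tested genes outside the family whose 9-library profile lay nearest to that of Eif1ad, by Euclidean distance on log2(FPKM + 1) centred on the control mean, were Yrdc, Rars, Ipo7, Nolc1 and Wdr43, at distances of 0.144, 0.170, 0.170, 0.177 and 0.181 against a median of 3.17 over 11928 genes. Yrdc, a tRNA-modification gene, was at 8.80 FPKM in control, 21.9 in experimental and 18.4 in intervention libraries, and Rars, for the arginyl-tRNA synthetase, at 32.5, 78.5 and 66.8.

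Whether counting used strand is not given in the sources, which bears on genes that overlap or share sequence. In GENCODE M21, 12 of 51 factors with a position overlap another protein-coding gene. Eif1ad overlaps Banf1 on the other strand, and Banf1 fell slightly (60.7 to 53.5 FPKM) where Eif1ad rose. Eif3j1 overlaps Spg11 (8.71 to 4.56 FPKM) and Eif2b4 overlaps Snx17 (30.1 to 16.3), both of which fell where the factor rose. Eif5b overlaps Rev1, which rose as Eif5b did (7.01 to 8.91 FPKM; log2 0.31; limma adjusted p = 0.000574). Eif2a, which did not pass, overlaps Serp1, which rose from 28.6 to 43.3, and Eif2d, which fell, overlaps Rassf5, which was not called at 1.25 FPKM or less in the group means. Reads of such pairs cannot be told apart without strand. At least 20% of the 50-base windows occur in another transcript for 10 tested factors: besides Eif3j2 and Eif4a1 these are Eif3j1 (39.8%), Eif3m (37.3%), Eif2s3x (36.2%), Eif1 (31.6%), Eif2s2 (27.8%), Eif3h (26.2%), Eif4a3 (24.4%) and Eif3e (22%), whose values are uncertain as single genes. No window of Eif1ad, Eif1b, Eif2b5, Eif2d or Eif4ebp2 was shared with another transcript read in its own orientation. Opposite-strand sequence was not searched, so this says nothing about the overlaps of Eif1ad and Eif2d given above. Eif1b likewise overlaps D830035M03Rik on the other strand.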

How the data were processed

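The authors deposited 1 table of FPKM per entry and library, per the file headers; per the submitters' processing notes the build is mm10, and for aligner, counter, annotation and strand the state is: not given in the sources used here. An RNeasy kit gave the RNA and a SMARTer mRNA-Seq kit the libraries, per the labels' protocols. Here log2(FPKM + 1) was fitted with limma 3.58.1 in R 4.3.3 (mean-variance trend, all 9 libraries in 1 fit, no covariate). Entries with FPKM of at least 1 in at least 3 libraries were tested (11974), and p-values were adjusted over all of them by Benjamini-Hochberg, 2-sided, with calls at 0.05. Fold changes on this scale understate the change of low genes. Values in every library are given for the largest called riser and faller of each complex, for called members with an absolute log2 difference of at least 0.6, and for 12 factors named whatever they showed; from each other list up to 3 genes with the smallest adjusted p are named. The members and lists were chosen with earlier results of these data known. Alternatives covered the pseudocount, the filter, scaling, the spread estimate, the libraries in the fit, the replicate block and leaving out each library. Gene positions and shared windows of 50 bases came from GENCODE M21, promoters from RefSeq.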

Additional observations from a re-analysis of the deposited data

How the results depend on the processing

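Each count of called factors was recomputed under 18 alternatives, 9 of which leave out 1 library. Experimental against control, 28 to 39 factors were higher and 5 to 7 lower; intervention against control, 29 to 38 were higher and 2 to 6 lower, with the 2 under median-ratio scaling in place of 5. Shares over all tested genes, given above for the deposited, median-ratio and quantile scales, moved with the setting too. Intervention against experimental was least stable. The count of higher factors, 3, became 0 with no filter on low values, 1 after scaling to TPM, 0 after median-ratio scaling, 0 after quantile normalization, 1 with no mean-variance trend, 1 with only the 2 groups compared, and 0 to 3 with a library left out (at an unadjusted p under 0.05, 9 factors passed with no filter). The count of lower factors, 2, became 0 with no filter, 5 after median-ratio scaling, 0 with no trend, 0 with only the 2 groups, and 0 to 3 with a library left out. The cause was not tested. With the replicate number as a block, 0 factors were higher and 0 lower between intervention and experimental (6 at an unadjusted p under 0.05), and the calls over all genes went from 2337 to 1268. Same-numbered libraries correlated by -0.182 to 0.110 in their deviations from the group means, and differently numbered ones by -0.140 to 0.149. These correlations show no pairing by number but cannot exclude it, and the labels do not say. The block left 31 higher and 7 lower, experimental against control, and 33 and 4, intervention against control. Over all 11974 tested genes it called 8732 and 7577 in these comparisons, in either direction.

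Among the called differences of factors given by library, 3 changed sign: Eif4b (0.11) and Eif4g1 (0.076), experimental against control after median-ratio scaling, and Eif5a, intervention against control after quantile normalization (-0.0019). Eif5a2 was not tested where a mean FPKM of 5 was required. A count test was planned if whole reads could be recovered; 1383 of 8038 values above 0 of genes under 200 bases (17.2%) lay below 1 read for a library of 200000000 reads, so it was not run. Depth is unknown, and 3 libraries a group limit the precision.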
